A study of Mus musculus with 2 samples.

Results

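The 9 genes described here set the pace at which cells leave G1, the growth phase before DNA is copied. They are Cdkn1a, Cdkn1b and Cdkn1c (the p21, p27 and p57 inhibitors of cyclin-dependent kinases), the D cyclins Ccnd1, Ccnd2 and Ccnd3, the E cyclins Ccne1 and Ccne2, and Mdm2, the ubiquitin ligase that holds p53 in check. They were chosen by symbol, and all 9 were found among the 19070 genes with probes. The endometrium of mice at pregnancy day 3 was profiled cell by cell, with a single library for each of the genotypes Erbb3 f/f (controls) and Erbb3 d/d (Erbb3 deleted in the stroma, per the submitters). Tissue was fixed before dissociation and read with the 10x Flex assay, in which paired probes are ligated on transcripts and counted as unique molecular identifiers (UMIs). The labels do not state the Cre driver, the number or age of the mice behind a library, or whether the libraries were prepared together. With 1 library per genotype every ratio below, d/d over f/f unless stated, compares 2 preparations, the spread between animals is unknown, and no test was made. All intervals are 95% intervals that cover counting error only.

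In G1, D cyclins bind Cdk4 and Cdk6, and E cyclins then bind Cdk2. The active kinases phosphorylate the RB proteins and so release E2F factors, which drive genes of DNA synthesis, Ccne1 and Ccne2 among them. Cdkn1a, Cdkn1b and Cdkn1c bind these kinase complexes, and p53 induces both Cdkn1a and its own antagonist Mdm2. In the mouse uterus before implantation, estrogen drives the luminal epithelium to divide, and progesterone ends that division and moves proliferation to the stroma.

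After filtering, 5501 f/f cells and 1828 d/d cells remained, with medians of 809 and 763.5 UMIs per cell. Cells were assigned to a type when they held at least 3 UMIs of its marker genes and at least 2 times as many as of the next type. This gave 1994 f/f and 664 d/d epithelial cells and 1631 f/f and 401 d/d stromal cells, while 1587 and 660 cells stayed unassigned. Keratins that were not used in the assignment summed to 1759 and 2156 CPM (counts per 1000000 UMIs of that cell class in that library) in f/f and d/d epithelium, against 339 and 648 CPM in stroma. Stromal markers summed to 466.5 and 418 CPM in f/f and d/d epithelium. The epithelial cells of the libraries were spread differently over shared clusters. Cluster 0, led by Arvcf and Slc5a11, held 46.5% of the f/f and 6.93% of the d/d cells. Cluster 1, led by mitotic genes such as Troap and Prc1, held 17.2% of the f/f and 54.7% of the d/d cells. Erbb3 itself gave 21 UMIs (12.99 CPM) in f/f stroma and 2 UMIs (5.10 CPM) in d/d stroma, with an interval of the log2 ratio from -4.48 to 0.68. In epithelium it gave 172 and 29 UMIs (80.6 and 44.7 CPM, log2 ratio -0.85, interval -1.47 to -0.28). Where the Erbb3 probes lie relative to the deleted part was not given in the sources used here, so these values do not check the labels. No whole cell barcode occurred in both libraries, and 158 of the 16-base droplet parts did.

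Among the inhibitors, Cdkn1a was higher in d/d epithelium and Cdkn1b lower under the main filters. Cdkn1c did not differ there beyond counting error. Cdkn1a gave 30 UMIs (14.1 CPM) in f/f and 62 UMIs (95.6 CPM) in d/d epithelial cells. The d/d level was 6.80-fold higher, a log2 ratio of 2.77 with an interval from 2.12 to 3.45. Cdkn1a RNA was spread thinly over cells, and no epithelial cell held more than 2 of its UMIs. After every cell had been thinned to 500 UMIs, Cdkn1a was held by 0.552% of the f/f epithelial cells and 4.52% of the d/d ones, and before thinning 27 of 1994 and 54 of 664 cells did. In stroma the thinned shares were 0.493% and 1.50%, at median depths of 767 and 740 UMIs against 906 and 875 in epithelium, and since no class is known to lack Cdkn1a the share due to free RNA was not tested. The unassigned cells gave a similar pair of levels, 11.2 and 63.4 CPM. In stroma the levels were 12.99 CPM from 21 UMIs and 28.1 CPM from 11 UMIs, with an interval of the log2 ratio from -0.09 to 2.23. In f/f stroma 2 cells held 3 or more of these UMIs, up to 5 in a cell, and no d/d stromal cell held more than 1. The interval does not allow for such uneven cells. In the clusters in which at least 90% of the assigned cells were stromal (an alternative added after the data had been seen), Cdkn1a gave 6 and 1 UMIs, which is 5.82 and 5.80 CPM. With cell classes taken from the clusters instead, the stromal log2 ratio was 1.58 with an interval from 0.48 to 2.65. A difference in Cdkn1a was therefore measured in epithelial and unassigned cells, while in stroma these few UMIs did not settle whether there was one. The remaining classes held at most 3 Cdkn1a UMIs per library.

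Cdkn1a has 2 start sites in the RefSeq promoter table of build GRCm38.p6, and the 250 bases before each are shown because this member differed most. The first window is chr17:29090729-29090978 and the second is chr17:29093519-29093768, both on the plus strand. Capitals mark a match to the p53 response element, searched on both strands with up to 1 mismatch allowed in its 20 bases outside the fixed C and G of each decamer.
Cdkn1a, upstream start: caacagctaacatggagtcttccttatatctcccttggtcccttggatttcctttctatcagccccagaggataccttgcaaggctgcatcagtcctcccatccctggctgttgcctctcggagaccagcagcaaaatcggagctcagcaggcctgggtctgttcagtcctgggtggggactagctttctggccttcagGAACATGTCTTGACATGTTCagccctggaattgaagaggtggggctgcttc
Cdkn1a, downstream start: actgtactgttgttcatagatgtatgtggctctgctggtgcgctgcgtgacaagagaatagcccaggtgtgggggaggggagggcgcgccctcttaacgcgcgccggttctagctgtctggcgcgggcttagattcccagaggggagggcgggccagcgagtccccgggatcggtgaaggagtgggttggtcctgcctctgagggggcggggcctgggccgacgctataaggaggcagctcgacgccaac
The match lies 51 to 32 bases before the upstream start, and the window of the downstream start holds none. The allowance of 1 mismatch was set after this window had been read. With it, 19 of the 32851 windows in the table (0.0578%) held a match, and without it 3 windows did, none of them of a member. Of the 9 members 5 had windows, 7 windows in all, and no other member window held a p53 match. None of the 7 held an E2F site in the forms TTTCCCGC, TTTCGCGC, TTTGCCGC or TTTGGCGC on either strand, which 1.86% of all windows hold. A match is a string of letters and says nothing here of binding.

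Cdkn1b gave 406 UMIs (190.2 CPM) in f/f and 90 UMIs (139 CPM) in d/d epithelium, a log2 ratio of -0.45 with an interval from -0.80 to -0.12. In stroma it gave 113 and 125 CPM, and the interval of that ratio included 0. Cdkn1c, known in the uterus for its part in decidual differentiation of the stroma, was higher in stroma (43.9 CPM in f/f and 71.5 CPM in d/d) than in epithelium (19.7 and 17.0 CPM). Its stromal log2 ratio was 0.70 with an interval from 0.02 to 1.35. The epithelial intervals of the libraries overlapped for Cdkn1c and not for Cdkn1a.

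Among the D cyclins Ccnd1 was higher in d/d epithelium and Ccnd2 lower in d/d stroma. Ccnd1, the D cyclin best known as a target of mitogen signals, gave 100 UMIs (46.8 CPM) in f/f and 82 UMIs (126 CPM) in d/d epithelium. Its level was 2.70-fold higher in d/d, with a log2 ratio of 1.43 and an interval from 0.99 to 1.87. In stroma Ccnd1 gave 44.5 and 33.2 CPM, with an interval of the log2 ratio from -1.40 to 0.44. In the clusters that were at least 90% stromal it gave 43 UMIs in 1215 f/f cells and 1 UMI in 227 d/d cells, a log2 ratio of -2.85 with an interval from -8.18 to -0.29. Among the cell classes of the f/f library Ccnd1 was highest in endothelium, at 157 CPM from 20 UMIs, and its d/d endothelial level was 228 CPM from 9 UMIs, within counting error of the f/f level.

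Ccnd2 was the member with the largest difference in stroma. It gave 173 UMIs (107 CPM) in 1631 f/f stromal cells and 8 UMIs (20.4 CPM) in 401 d/d stromal cells. The log2 ratio was -2.39 with an interval from -3.62 to -1.38, so the d/d level was 5.24-fold lower. Of stromal cells thinned to 500 UMIs, 4.93% of the f/f ones and 0.998% of the d/d ones held a Ccnd2 UMI. Epithelial cells, which hold little of this cyclin, gave shares of 0.452% and 1.05%. The d/d stromal share, from 4 cells, was thus near the d/d epithelial one, and its interval (0.272% to 2.53%) held both epithelial shares. The stromal cells were then divided by 2 pairs of genes taken from the leading genes of stromal clusters, a division made after the data had been seen. Pth1r was among the leading genes of 2 such clusters. A cell was placed with a pair only if it held more UMIs of it than of the other pair. Cells with at least 2 UMIs of Col6a4 and Adam12 gave 129 CPM in f/f and 23.1 CPM in d/d, the latter from 5 UMIs. Cells with at least 2 UMIs of Pth1r and Scube1 gave 108 and 26.0 CPM, the latter from 1 UMI in 43 cells. The remaining stromal cells gave 96.1 and 14.6 CPM, the latter from 2 UMIs. The d/d level was the lower in all 3 divisions, and in the Pth1r and Scube1 division the interval of the ratio included 0. A cluster led by the smooth muscle genes Myh11 and Acta2 gave 39 Ccnd2 UMIs (143 CPM) in f/f and 1 UMI (6.81 CPM) in d/d. In a cluster led by the mesothelial genes Upk3b and Msln the levels were 71.5 and 52.2 CPM, and in assigned endothelial cells they were 31.4 and 50.7 CPM, both within counting error. The d/d stromal cells differed in makeup as well: mesothelial markers summed to 218 CPM in f/f and 470 CPM in d/d stroma, and the median mitochondrial share of UMIs was 1.30% and 3.06%. In the clusters that were at least 90% stromal, Ccnd2 was still lower in d/d, at 117 and 29.0 CPM from 121 and 5 UMIs (log2 ratio -2.02, interval -3.67 to -0.75). Over all cells of the cluster led by Col7a1 it was 143.5 and 15.05 CPM (interval -8.58 to -0.73), the latter from 1 UMI in 95 cells. In the one led by Hsd11b2 it was 92.1 and 41.2 CPM from 51 and 5 UMIs, with an interval from -2.84 to 0.155 that included 0.

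**Figure D1:**
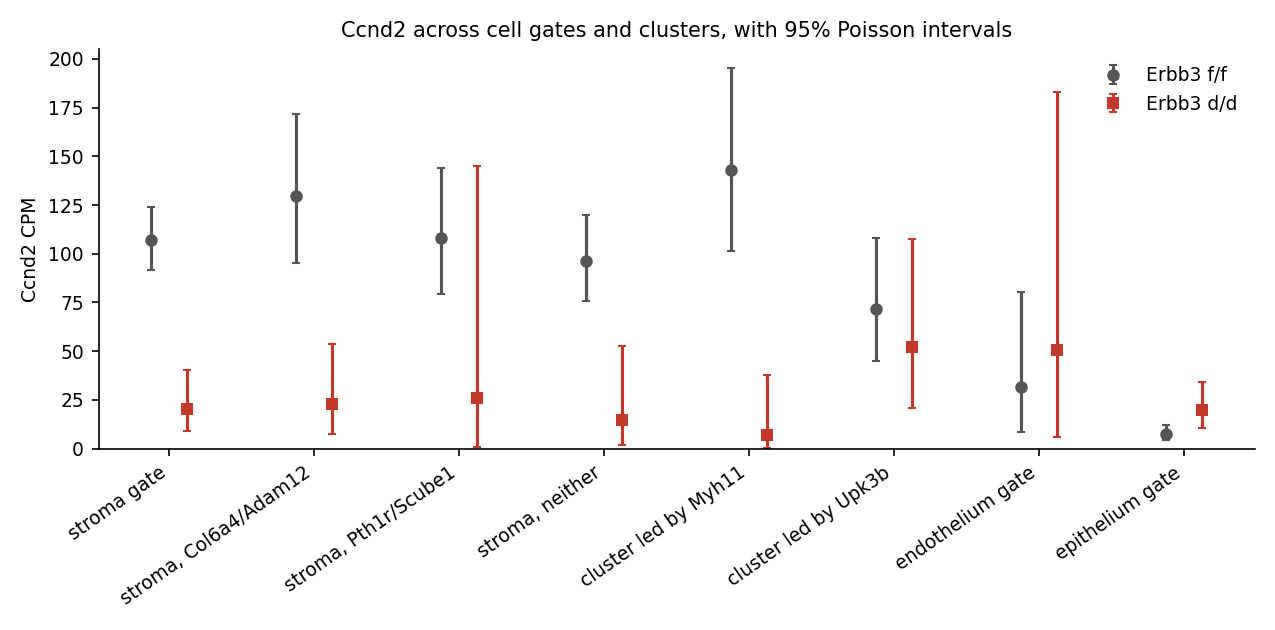
Ccnd2 CPM of each cell gate or cluster (vertical axis) in the Erbb3 f/f library (grey circles) and the Erbb3 d/d library (red squares), with 95% Poisson intervals as bars. The stroma gate stands at 107 CPM in f/f and 20.4 CPM in d/d, its 3 divisions are all lower in d/d, and the epithelium gate is near the floor of the axis in both.

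In epithelium Ccnd2 was scarce, with 16 UMIs (7.49 CPM) in f/f and 13 UMIs (20.04 CPM) in d/d, a log2 ratio of 1.42 with an interval from 0.24 to 2.57. With cell classes taken from the clusters it was 0.53 (interval -0.22 to 1.24), and with every cell thinned to 500 UMIs 0.94 (interval -1.33 to 3.02). With at least 5 marker UMIs and 3 times those of the next type it was 1.96 (interval 0.51 to 3.44). In the epithelial cells of clusters with at least 90% of 1 class it was 2.35 (interval 0.78 to 4.06). The ratio thus varied with the processing, and this difference was not settled. Its stromal and epithelial levels were thus 107 and 7.49 CPM in f/f and 20.42 and 20.04 CPM in d/d. Ccnd3 gave 52 and 17 UMIs in the whole f/f and d/d libraries, 9.43 and 9.96 CPM. No difference in Ccnd3 was detectable at this depth in either cell type under the main filters. With all deposited barcodes its epithelial log2 ratio was 0.95, with an interval from 0.15 to 1.73.

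Both E cyclins were higher in d/d epithelium, Ccne1 with less certainty. Ccne1 gave 26 UMIs (12.2 CPM) in f/f and 21 UMIs (32.4 CPM) in d/d, with a log2 ratio of 1.41 and an interval from 0.51 to 2.30. Ccne2 gave 52 UMIs (24.4 CPM) in f/f and 55 UMIs (84.8 CPM) in d/d, 3.48-fold higher, with a log2 ratio of 1.80 and an interval from 1.23 to 2.38. Under a stricter assignment, with at least 5 marker UMIs and 3 times those of the next type, the log2 ratio of Ccne2 was 0.97 (interval 0.08 to 1.82) and that of Ccne1 was 0.74, with an interval from -0.51 to 1.89 that included 0. The interval of Ccne1 also included 0 with every cell thinned to 500 UMIs (-0.54 to 3.10). In stroma Ccne2 gave 11.1 and 30.6 CPM from 18 and 12 UMIs, with a log2 ratio of 1.46 and an interval from 0.27 to 2.59, which became 0.12 (interval -3.09 to 2.32) in the clusters that were at least 90% stromal. Mdm2, the most abundant member by UMI count, gave 496 UMIs (232 CPM) in f/f and 198 UMIs (305 CPM) in d/d epithelium. Its log2 ratio was 0.39 (interval 0.15 to 0.63) in epithelium and 0.52 (interval 0.18 to 0.85) in stroma. The d/d level of Mdm2 was therefore the higher in both cell types under the main filters, by less than 2-fold in each. With all deposited barcodes its epithelial log2 ratio was 0.16, with an interval from -0.04 to 0.36 that included 0.

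**Figure D2:**
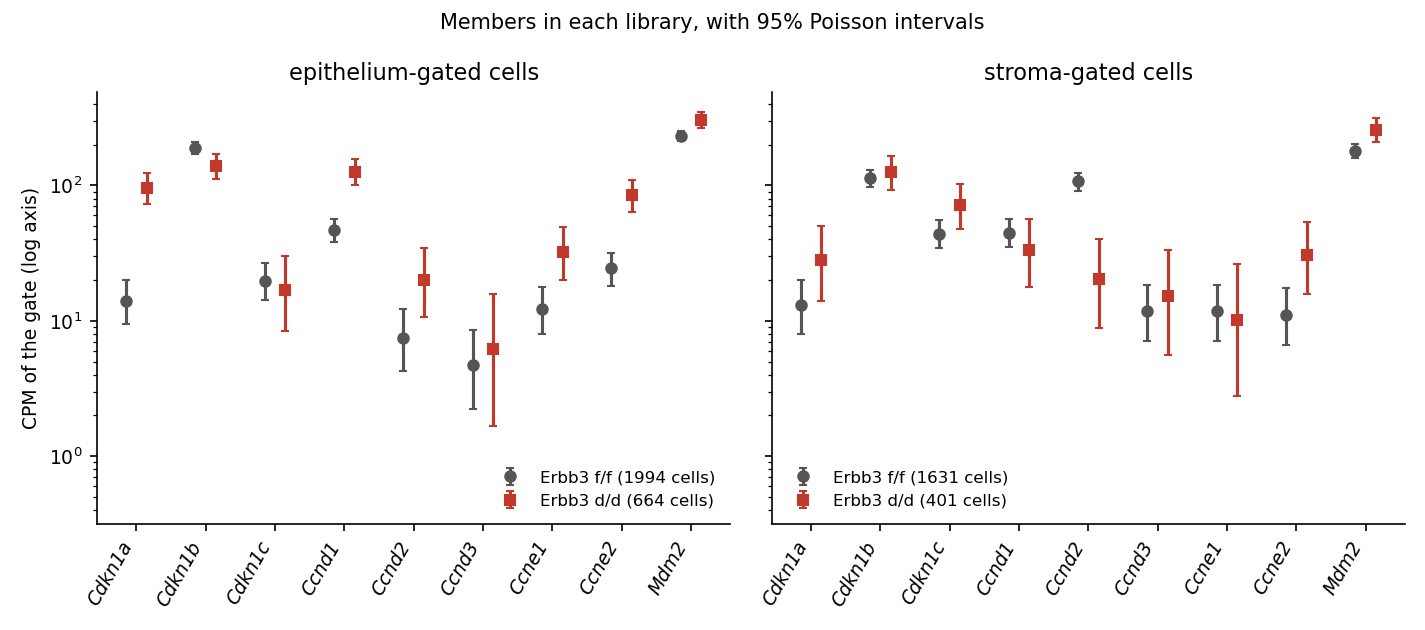
CPM (log axis) of the 9 members in epithelium-gated cells (left) and stroma-gated cells (right) of the Erbb3 f/f library (grey circles) and the Erbb3 d/d library (red squares), with 95% Poisson intervals. In epithelium the intervals of Cdkn1a, Ccnd1, Ccne1, Ccne2 and Mdm2 do not overlap and the d/d level is the higher. Those of Cdkn1b do not overlap either, narrowly, and its d/d level is the lower. In stroma Ccnd2 is the member far lower in d/d. Levels of different genes are not comparable, since each depends on its probes.

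Set against all genes, a log2 ratio of at least 1 in either direction among genes with at least 100 UMIs was called a 2-fold difference. In epithelium 4 of the 9 members had 100 UMIs, and 2 of these, Ccnd1 and Ccne2, were called higher, with 4.62% of all 6514 genes called higher and 4.64% lower. Cdkn1a fell short of the minimum with 92 UMIs. With a minimum of 20 UMIs, 8 members were counted and 5 were called higher, Cdkn1a, Ccnd1, Ccnd2, Ccne1 and Ccne2, where 7.3% of all genes were. In stroma 3 members were counted, and Ccnd2 alone was called, as lower, where 2.83% of all genes were. With a minimum of 20 UMIs all 9 were counted in stroma: Ccne2 and Cdkn1a were called higher and Ccnd2 lower, where 5.26% and 5.82% of all genes were. Over whole libraries, with 8 members counted, Cdkn1a, Ccne1 and Ccne2 were called higher (3.17% of all genes). The median log2 ratio of all counted genes was -0.02 in epithelium and -0.09 in stroma.

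Cells were next divided by cycling state, because several members follow the cell cycle. An epithelial cell was taken as cycling with at least 2 UMIs of Top2a, Tpx2, Kif11, Prc1 and Birc5, which mark S phase to mitosis, and as non-cycling with none. Of the epithelial cells 335 of 1994 (16.8%, interval 15.2% to 18.5%) were cycling in f/f and 291 of 664 (43.8%, interval 40.0% to 47.7%) in d/d. When each cell was thinned to 500 UMIs the shares were 9.39% and 25.9%. Cycling cells were deeper, with medians of 1361 and 1075 UMIs against 854 and 704.5 in non-cycling cells, and the part of depth in the division was not tested. In stroma 1.29% of f/f and 7.48% of d/d cells were cycling.

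In the f/f library the E cyclins and Cdkn1b were higher and Ccnd1 was lower in cycling cells. Ccne1 was 3.94 CPM in non-cycling and 33.0 CPM in cycling cells, from 6 and 17 UMIs (log2 ratio 3.07, interval 1.66 to 4.70). Ccne2 was 11.2 and 60.2 CPM, from 17 and 31 UMIs (log2 ratio 2.43, interval 1.53 to 3.38). Ccnd1 was lower in cycling cells, at 55.1 and 25.2 CPM from 84 and 13 UMIs (log2 ratio -1.13, interval -2.10 to -0.28). Cdkn1b, whose protein is removed as cells enter S phase, was higher in its RNA in cycling cells, at 165 and 266 CPM (log2 ratio 0.69, interval 0.37 to 0.99). Among genes with at least 20 UMIs, 7 members were counted, Ccne1 and Ccne2 were called higher (6.36% of all genes) and Ccnd1 lower (5.05% of all genes). With at least 100 UMIs only Cdkn1b and Mdm2 were counted and neither was called, where 5.69% of all genes were.

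In the d/d library Ccnd1 and Cdkn1b differed in the same directions, and for Ccne2 no direction was settled. Ccnd1 was 188 CPM in non-cycling and 92.1 CPM in cycling cells (log2 ratio -1.03, interval -1.74 to -0.34). Cdkn1b was 100.3 and 169 CPM (log2 ratio 0.76, interval 0.04 to 1.51). Ccne2 was 91.9 CPM in non-cycling and 59.4 CPM in cycling cells, from 22 and 20 UMIs, with an interval of the log2 ratio from -1.58 to 0.31. Under the stricter assignment this ratio was 0.74 (interval -1.18 to 3.22). Cells with 1 UMI of the 5 cycling genes gave the highest d/d level of Ccne2, 179 CPM from 13 UMIs in 77 cells. Ccne1 was 20.9 and 35.7 CPM, within counting error. With at least 20 UMIs, 5 members were counted and Ccnd1 alone was called, as lower (4.9% of all genes), and with at least 100 UMIs Mdm2 alone was counted and not called (6.92% of all genes called in either direction).

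**Figure D3:**
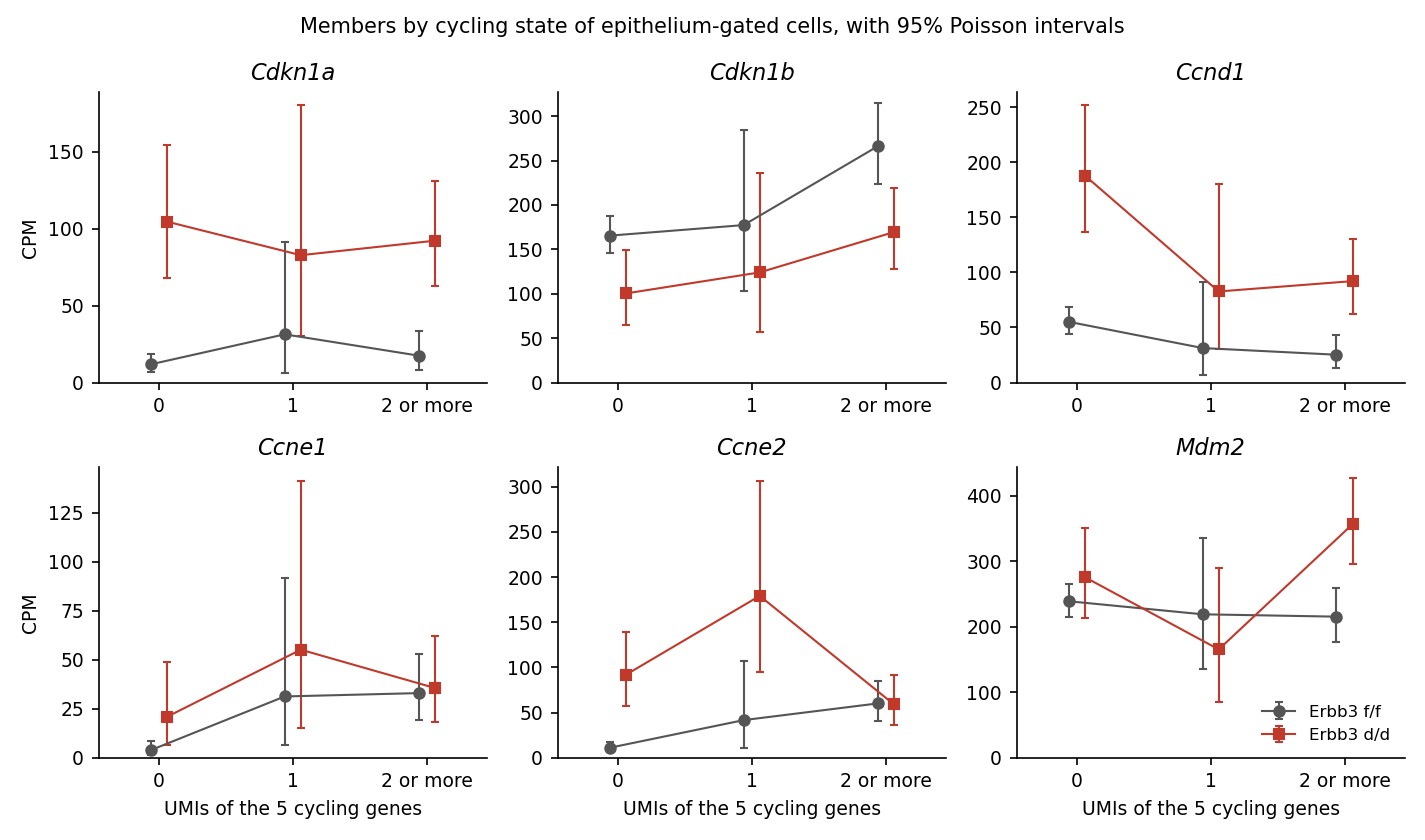
CPM (vertical axes, each from 0) of 6 members in epithelium-gated cells with 0, 1 and 2 or more UMIs of the 5 cycling genes, in the Erbb3 f/f library (grey circles) and the Erbb3 d/d library (red squares), with 95% Poisson intervals. Cdkn1a and Ccnd1 are higher in d/d at 0 and at 2 or more, and Ccne1 and Ccne2 reach like levels in the cycling cells of both libraries.

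The libraries differed in Cdkn1a and Ccnd1 both within cycling and within non-cycling cells. For the E cyclins the interval of the ratio included 0 in cycling cells. These classes are not fully matched in state. Non-cycling cells held Cdk1 at 19.7 CPM in f/f and 87.7 CPM in d/d, at median depths of 854 and 704.5 UMIs. The difference between the states was itself not tested. In cycling cells Cdkn1a was 17.5 CPM in f/f and 92.1 CPM in d/d, from 9 and 31 UMIs (log2 ratio 2.40, interval 1.29 to 3.65). In non-cycling cells it was 11.8 and 104.5 CPM, from 18 and 25 UMIs (log2 ratio 3.14, interval 2.21 to 4.10). Ccnd1 had log2 ratios of 1.87 (interval 0.89 to 2.93) in cycling and 1.77 (interval 1.21 to 2.31) in non-cycling cells. Ccne1 and Ccne2 gave 33.0 and 60.2 CPM in f/f cycling cells and 35.7 and 59.4 CPM in d/d cycling cells. In non-cycling cells Ccne2 was 11.2 and 91.9 CPM (log2 ratio 3.04, interval 2.06 to 4.05), and under the stricter assignment the log2 ratio was 1.18 (interval -1.30 to 3.10). Ccne1 there rested on 6 and 5 UMIs (log2 ratio 2.41, interval 0.36 to 4.38). Cdkn1b was lower in d/d in both states, with log2 ratios of -0.65 (interval -1.12 to -0.20) and -0.72 (interval -1.39 to -0.12). Mdm2 was higher in d/d cycling cells (215 and 357 CPM, log2 ratio 0.73, interval 0.34 to 1.11), and in non-cycling cells the interval of its ratio included 0. With at least 20 UMIs, Cdkn1a and Ccnd1 were called higher among 6 members in cycling cells (4.72% of all genes), and Cdkn1a, Ccnd1 and Ccne2 among 6 members in non-cycling cells (7.28% of all genes). With at least 100 UMIs, 0 of 2 members were called in cycling cells (2.46% of all genes higher), and Ccnd1 was called higher among 3 members in non-cycling cells (2.36% of all genes).

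The f/f levels were also computed with the f/f cycling states weighted as in the d/d library. So weighted, f/f Cdkn1a would be 16.9 CPM and the log2 ratio 2.50, against 2.77 before. For Ccnd1 the log2 ratio became 1.78, against 1.43. For Ccne2 it became 1.08, against 1.80, and for Ccne1 0.55, against 1.41. Of these 4 members the E cyclins moved most, toward 0, and the Ccnd1 ratio moved away from 0.

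Cells that held a member were then compared with those that did not, each thinned to 500 UMIs for the presence of the member. Of the 30 d/d epithelial cells with Cdkn1a, 13 (43.3%, interval 25.5% to 62.6%) were cycling, against 43.9% of those without, a share inside that wide interval. In f/f the cells with Cdkn1a were too few for a direction: 1 of 11 was cycling (interval 0.230% to 41.3%), against 16.9% of those without, and with all UMIs 8 of 27 were (29.6%, interval 13.8% to 50.2%), against 16.6%. Of the f/f cells with Ccne2, 52.4% of 21 were cycling, and of the d/d cells with Ccne2, 26.9% of 26 were, with intervals that overlapped. Of the 46 f/f cells with Ccnd1, 2 were cycling (4.35%), against 17.1% of those without, but with all UMIs the shares were 12.9% of 85 and 17.0%, with intervals that overlapped. Of the d/d cells with Ccnd1 31.1% of 45 were cycling, against 44.8%, and these intervals overlapped too.

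Epithelial cells were further divided by Lrp2, Slc5a11 and Slc51a, genes of the epithelial cells common in the f/f library. Cells with at least 2 UMIs of them numbered 924 in f/f and 28 in d/d. Among cells with none, 663 in f/f and 586 in d/d, Cdkn1a was 13.1 and 104.8 CPM (log2 ratio 3.00, interval 1.93 to 4.27), Ccne2 18.1 and 87.0 CPM (log2 ratio 2.27) and Ccnd1 72.2 and 128 CPM (log2 ratio 0.82, interval 0.26 to 1.40). Cdkn1a, Ccne2 and Ccnd1 were thus higher in d/d without those cells too. In these cells 14.0% of f/f and 45.2% of d/d were cycling. Cells with at least 2 UMIs of the gland genes Foxa2, Cxcl15, Wfdc3, Syn2, Gulo and Dab1 numbered 186 (f/f) and 15 (d/d), with 0 and 1 Cdkn1a UMIs, too few for a comparison. Within the cluster led by mitotic genes, Cdkn1a was 13.7 and 90.5 CPM, and in the cluster led by Clca3b and Ltf it was 26.6 and 93.1 CPM. In cluster 0 it gave 18 UMIs in f/f and 0 UMIs in 66 d/d cells (upper limit of the log2 ratio 2.36). In the cluster led by Syn2 it gave 8 and 2 UMIs (interval -1.81 to 3.79). In these last clusters a difference was not settled.

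Other genes of the pathway were followed in epithelium through 6 lists, counted among genes with at least 100 UMIs, where the median log2 ratio of all genes was -0.02 and 4.62% of all genes were called higher. Of the cyclins of later phases 3 of 5 were counted and all 3 were called higher: Ccnf (log2 ratio 1.51), Ccna2, the S phase cyclin (1.50), and Ccnb2, a mitotic cyclin (1.18). Of the 12 CDKs, INK4 inhibitors and partners 6 were counted, with a median of 0.64, and Cdkn3, a phosphatase of CDKs, was called higher (1.01). Of the 13 RB and E2F genes 10 were counted, with a median of 0.60, and E2f8, a repressor of the family, was called higher (1.05). Of the 11 genes of cyclin and inhibitor turnover 8 were counted, none was called, and the median was -0.06. Cycling cells were the more frequent in d/d epithelium, and the part of that in these ratios was not tested. Within cycling cells, which were themselves chosen by mitotic genes, none of the counted later cyclins (3), CDKs and INK4 genes (1) or RB and E2F genes (4) was called. In non-cycling cells several of these genes were higher in d/d on few UMIs. There Cdk1, the mitotic kinase, had a log2 ratio of 2.16 from 30 and 21 UMIs (interval 1.28 to 3.01), E2f7 one of 1.78 from 37 and 20 UMIs (interval 0.92 to 2.61) and E2f8 one of 2.38 from 11 and 9 UMIs (interval 0.93 to 3.79). Ccna2 and Ccnf each had 7 and 5 UMIs there (log2 ratio 2.19, interval 0.19 to 4.06).

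The list of p53, its targets and related genes held 24 genes, of which 12 were counted. Of these 4 were called higher and none lower, with a median of 0.58, where 4.62% of all genes were called higher and 4.64% lower. Trp53, the gene of p53 itself, gave 127 CPM in f/f and 347 CPM in d/d epithelium (log2 ratio 1.45, interval 1.18 to 1.71). Pmaip1, a pro-apoptotic BH3 protein, gave 66.0 and 176 CPM (log2 ratio 1.41, interval 1.04 to 1.78). Bax, a pore-forming protein of apoptosis, gave 254 and 540 CPM (log2 ratio 1.09, interval 0.89 to 1.28). Psrc1, which acts at the mitotic spindle, gave 28.1 and 100.2 CPM (log2 ratio 1.83, interval 1.31 to 2.37). In cycling cells alone 4 of 6 counted genes of the list were called higher, Trp53, Pmaip1, Plk2 and Bax, with log2 ratios from 1.22 to 1.40, where 2.46% of all genes were, and Psrc1 was 0.36 with an interval that included 0. In non-cycling cells 2 of 9 were called higher, Trp53 (1.48) and Pmaip1 (1.19), where 2.36% of all genes were. Some other genes of the list did not differ by 2-fold over all epithelial cells: Ccng1 was 97.0 and 97.1 CPM, Mdm4 was 292 and 301 CPM, and Btg2 was 143 and 106 CPM (log2 ratio -0.43, interval -0.83 to -0.05). Within cycling cells Ccng1, which had under 100 UMIs there, was 34.9 CPM in f/f and 98.0 CPM in d/d (log2 ratio 1.49, interval 0.62 to 2.40). With at least 20 UMIs 19 genes were counted, 9 were called higher (7.3% of all genes) and Sesn1 lower (-1.03; 7.42% of all genes). Gdf15, a secreted stress cytokine, had the largest ratio, 4.22 and 47.8 CPM from 9 and 31 UMIs (log2 ratio 3.50, interval 2.40 to 4.76). Of the list 20 genes had promoter windows, and only that of Ccng1 held a p53 match as defined above. In stroma 0 of 7 counted genes of the list were called, where 4.48% of all genes were in either direction. Of these 7, Trp53 (log2 ratio 0.41, interval 0.10 to 0.71) and Bax (0.33, interval 0.09 to 0.58) had intervals above 0, and the other intervals included 0. With at least 20 UMIs 18 were counted, 0 were called higher (5.26% of all genes) and 1 lower (5.82%). Gdf15 fell short of that minimum, with 2 and 10 stromal UMIs (log2 ratio 4.37, interval 2.14 to 7.60).

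Of the hormone and mitogen genes 7 of 13 were counted in epithelium. Greb1, an estrogen receptor target, was called higher (26.7 and 125 CPM, log2 ratio 2.23, interval 1.72 to 2.74). Klf9, a progesterone receptor partner, was called lower (71.7 and 9.25 CPM, log2 ratio -2.95, interval -4.42 to -1.80). Esr1, the estrogen receptor gene, had a log2 ratio of 0.00, and Pgr, the progesterone receptor gene, one of -0.70. Myc was called higher in non-cycling cells (56.4 and 146 CPM, log2 ratio 1.37), where 2.36% of all genes were.

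**Figure D4:**
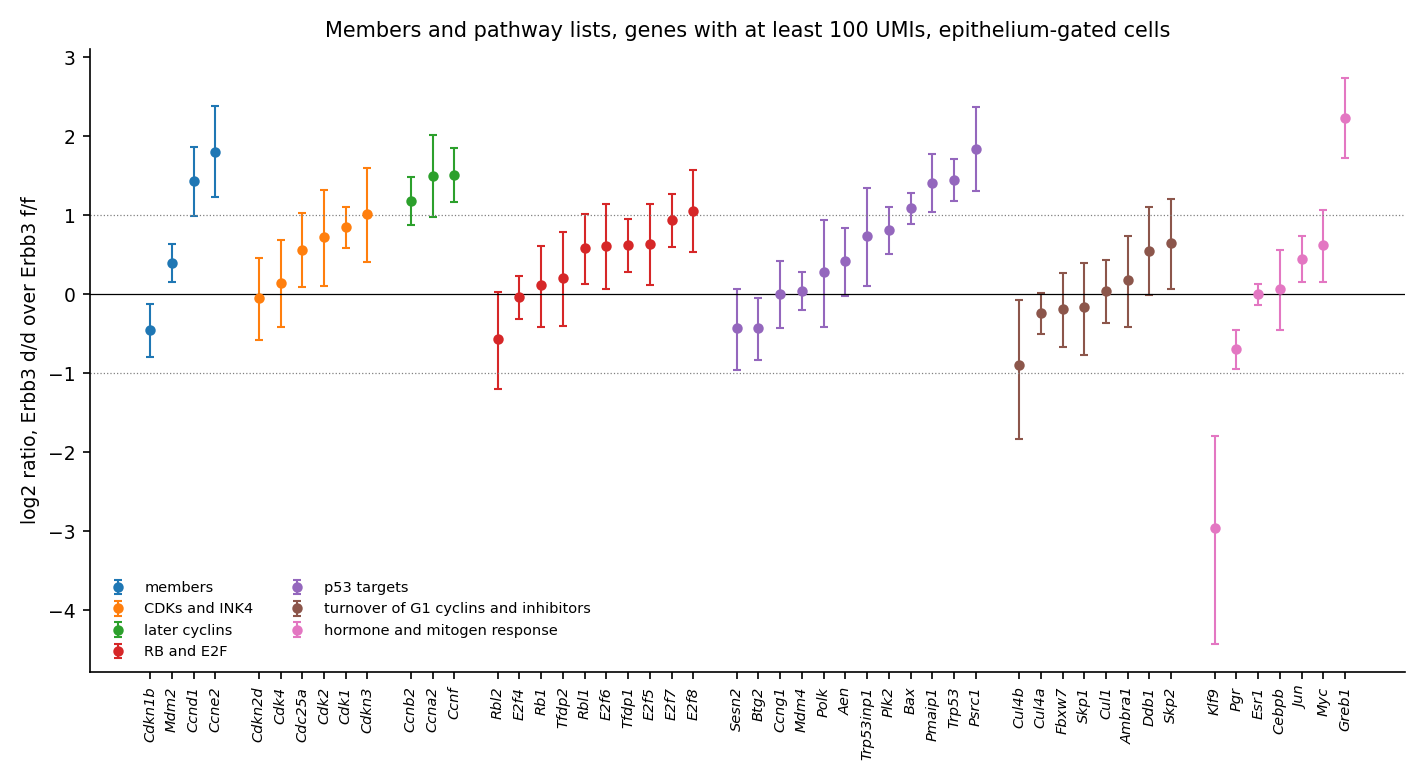
Log2 ratio of Erbb3 d/d over Erbb3 f/f in epithelium-gated cells (vertical axis) for the members and the genes of 6 lists with at least 100 UMIs, with exact 95% intervals for counting error as bars and dotted lines at a 2-fold difference. The later cyclins all lie above the upper line, 4 genes of the p53 list do, and Klf9 is the gene below the lower line.

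The genes most like 4 of the members were ranked by Pearson correlation of log2 CPM over 22 sums, 11 clusters in each of the 2 libraries, among 9740 genes. The points share libraries, depth and cell makeup, and the ranks are a description. For Cdkn1a they were Rnf180 (r 0.83), Aldh1a1 (r 0.81) and the member Ccne2 (r 0.80). For Ccnd1 they were Txnl1 (r 0.86), Tinagl1 (r 0.79) and Tarsl2 (r 0.78). For Ccne1 they were Hmgb3 (r 0.83), Pmf1 (r 0.80) and Tti1 (r 0.78), and for Cdkn1c they were Eno2 (r 0.85), Irak1bp1 (r 0.83) and Adamtsl5 (r 0.82).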

How the data were processed

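The deposited values are unnormalised UMI counts for each gene and cell barcode, and per the file headers the software was Cell Ranger 9.0.0. The submitters' processing notes name the builds mm10 and GRCm39 without a role, and the files give no coordinates. Barcodes with at least 200 genes and at most 10% mitochondrial UMIs were kept. This removed 280 of 5783 f/f and 295 of 2125 d/d barcodes, and 2 Scrublet doublet calls were left out in each library. Scrublet marked so few that leaving out the 5% highest scores was tried too. The counts used totalled 5514537 of 6819591 deposited UMIs in f/f and 1707255 of 2866862 in d/d, so the larger share was lost in d/d.

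UMIs were summed per library and cell class, scaled to 1000000 UMIs of the class (CPM), and given exact Poisson intervals. Ratios have exact conditional binomial intervals, shares have Clopper-Pearson intervals, and a count of 0 allows up to 3 counts. All are at 95% and cover counting error only. Shares of cells with a UMI were taken after thinning each cell to 500 UMIs, and 2 f/f epithelial and 9 f/f stromal cells under 500 were left out. Clusters (11) came from scanpy 1.11.5 with leidenalg 0.10.2, with 2000 variable genes, 30 components, 15 neighbours and resolution 1. Promoter sequences are RefSeq's for GRCm38.p6. Python 3.11.15, numpy 2.4.6 and scipy 1.17.1 were used, and the ratio and call steps were tested on simulated data. The alternatives tried were other barcode filters, doublet scores, a stricter assignment, cluster classes, centring, thinned sums, another gene minimum and a stricter cycling rule.

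The members, the 6 lists and the markers (120 of 122 were in the files) were chosen with earlier results of these data known. Genes named beyond the members are those called 2-fold in a list, at most the 5 largest, and the 3 most like Cdkn1a, Ccnd1, Ccne1 and Cdkn1c. The likeness rule asked for marker-assigned classes with at least 50 cells in each library, which left 4 sums, so clusters were used instead, with log2(CPM + 10). Genes named outside that rule, such as Mdm4, Ccng1, Btg2, Gdf15, Cdk1, E2f7, Esr1 and Pgr, were chosen after their values were seen.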

Additional observations from a re-analysis of the deposited data

Results flagged for a closer look

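The log2 ratio of cycling over non-cycling epithelial cells had opposite signs in the libraries for 3 members, a difference that was not tested. It was 0.56 in f/f and -0.18 in d/d for Cdkn1a, and -0.15 and 0.37 for Mdm2, each with an interval that included 0. For Ccne2 it was 2.43 in f/f and -0.63 in d/d, where the f/f interval alone excluded 0, and the d/d value was 0.74 under the stricter assignment.

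Cells outside the comparisons gave signals above the control library too. In cells with no assigned type the log2 ratios of d/d over f/f were 2.50 for Cdkn1a, 0.86 for Ccnd1, 1.68 for Ccne2 and 0.37 for Mdm2. In the barcodes left out by the filters they were 2.64 for Cdkn1a, 1.33 for Ccnd1, 2.76 for Ccne1, 1.40 for Ccne2 and 0.46 for Mdm2.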

How the results depend on the processing

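In epithelium Cdkn1a (2.39 to 3.33), Ccnd1 (1.22 to 1.74) and Ccne2 (0.97 to 2.38) kept the sign of their log2 ratio in all 9 alternatives, with intervals above 0, and Ccnd2 in stroma did so below 0 (-2.75 to -1.68). In stroma Cdkn1a turned to -0.005 in clusters that were at least 90% stromal and Ccne2 to -0.29 when cells were thinned to 500 UMIs before sums; the cause was not tested. Counts of called members rest on few genes near the minimum. The shares of all genes called under the alternatives are not given here, so a changed count is not read as a result about the members. In epithelium 2 became 3 with all deposited barcodes and with classes from clusters, 1 without the 5% highest doublet scores, under the stricter assignment and in clusters of at least 90% one class, and 0 when thinned. In stroma 1 became 0 when thinned. In cycling epithelium 0 became 2 with all deposited barcodes, and in non-cycling epithelium 1 became 0 under the stricter assignment and when thinned; thinning leaves fewer members with 100 UMIs. With a minimum of 20 UMIs the counts were 5 in epithelium, 3 in stroma, 3 and 1 for cycling over non-cycling cells in f/f and d/d, and 2 and 3 for d/d over f/f in cycling and non-cycling cells. The same minimum gave 10 called genes of the p53 list, 1 of the turnover list and 5 of the hormone and mitogen list, against 4, 0 and 2. Of all genes in epithelium 7.3% were called higher and 7.42% lower at 20 UMIs, against 4.62% and 4.64% at 100 UMIs. No paired analysis was possible because each genotype has 1 library. Depth limits Ccnd3, Ccne1 and the small cell classes, which hold few UMIs.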
